A study of Talpa occidentalis with 2 samples.

Results

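Nested genes, or guests, were chosen by position alone, as gene models whose whole record lay inside 1 gap between successive coding exons of another model, the host, on the same scaffold of the Iberian mole (Talpa occidentalis) build talOcc3. Both models had to carry a gene symbol, and the symbols had to differ. The rule found 492 guests among 21076 models with a symbol (2.33%). They lay in 378 hosts among the 16979 models with at least 2 coding exons (2.23%). The series itself profiled the chromatin contacts of the FGF9 promoter by 4C-seq, in which ligated fragments near a chosen viewpoint are amplified and sequenced. It held 1 forebrain library and 1 hindlimb library from wild-type embryos of embryonic day 15, both with the FGF9 transcription start as viewpoint, and so no replicates. The values below come from the deposited gene annotation, which has no column for either library, and the 4C contacts themselves were not analysed here. Each count describes 1 annotated genome, and the 95% Wilson intervals given beside shares cover counting error only.

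In mammals, introns can be far longer than the genes of other families, and many hold a complete gene with a promoter of its own. Such guests are often read from the strand opposite to the host. Some arose as retrocopies, in which a spliced messenger RNA was copied back into DNA and landed in an intron. Others have shared their host since early vertebrates, so that duplicated hosts carry duplicated guests.

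All 492 guests were transcribed in the direction opposite to their host, a share of 100% with a Wilson interval of 99.2% to 100%. This count cannot be read as a property of nested genes, because the annotation held no overlap of gene records on the same strand of any kind. Over all models there were 850 overlapping pairs of gene records, 683 with 1 record inside the other and 167 with a partial overlap, and every pair ran on opposite strands. Of 20589 neighbouring models without overlap, 11097 (53.9%, 53.2% to 54.6%) shared a strand. The filtering of models for overlap was not given in the sources used here, and guests on the strand of their host could not be seen. No guest had more than 1 host, and no guest was itself a host.

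Guests were mostly short models of 1 coding exon. They included 284 such models (57.7%, 53.3% to 62.0%), whereas 4097 of all models with a symbol (19.4%) had 1 coding exon. Put the other way, 6.93% of models with 1 coding exon and 1.23% of models with more were nested. The median guest had 670.5 coding bases and spanned 0.914 kb, against 1077 coding bases and 8.62 kb over all models with a symbol. The rule itself favours small guests, which have room in more gaps, so these lengths are descriptions. By the source named in the annotation, 109 guests (22.2%) came from EVM, a program that combines lines of evidence into 1 model, 281 (57.1%) from the aligner exonerate and 102 (20.7%) from a source named ALN. Over all models with a symbol the shares were 69.7%, 19.0% and 11.3%. Of the 378 hosts, 290 (76.7%) came from EVM. Only the 16979 models with at least 2 coding exons could be hosts, and their shares by source were not counted.

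Splitting the guests by coding exons and by the number of models of their symbol gave 4 kinds. The largest kind held 230 guests with 1 coding exon whose symbol had several models. Of these, 203 (88.3%) carried a copy suffix and 195 (84.8%) had a sister model with at least 2 coding exons elsewhere in the annotation. They had a median of 412.5 coding bases and sat in gaps with a median of 13.4 kb. Another 54 guests had 1 coding exon and the only model of their symbol, with a median of 892.5 coding bases in gaps of 42.9 kb. The 132 guests with several coding exons and the only model of their symbol had a median of 1105.5 coding bases in gaps of 74.6 kb. The last 76 had several coding exons and several models of the symbol. EVM supplied 78 of the 132 and 31 of the 76, and none of the 284 guests with 1 coding exon.

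**Figure D1:**
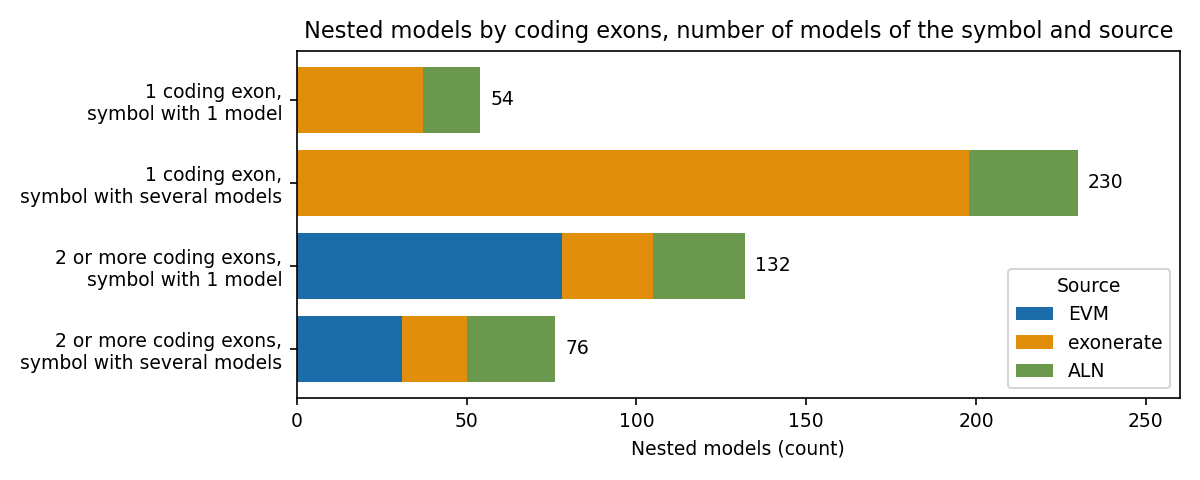
Number of nested models (x axis, count) of each kind (y axis), stacked by the source of the model in the annotation. The kind with 1 coding exon and several models of the symbol holds 230 guests, 198 of them from exonerate, and models from EVM appear only among the guests with at least 2 coding exons.

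Host models were longer than most and had more coding exons at the median. Their median span was 84.3 kb (3.09 to 830.8 kb) with 12 coding exons (2 to 157), against 13.4 kb and 7 coding exons for all models with at least 2. The rule asks for a gap that holds a whole gene record and so favours long hosts, which makes these spans descriptions. Models of at least 300 kb made up 40 of the 378 hosts (10.6%) and 190 of the 16979 candidates (1.12%), so that 21.1% of such models held a guest. Among genes known as very long in mammals, 13 of 127 models were hosts, 3.44% of hosts and 0.748% of candidates. They included the neuronal genes CSMD2 and NBEA, the calcium channel subunit gene CACNA2D3 and the phosphatase gene PTPRD. Exactly 1 guest lay in each of 324 hosts (85.7%), while 16 hosts with at least 4 guests held 90 guests (18.3%).

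The gaps that held guests were longer than most, as the rule requires for all but the smallest guests. Taken once per gap, the 399 gaps had a median of 20.4 kb, against 1.127 kb for all 155396 gaps between coding exons. Of the 349 gaps of at least 100 kb, 54 (15.5%) held a guest. The 5 longest gaps with a guest belonged to CTNNA2 (468.7 kb, with LRRTM1), IMMP2L (427.8 kb, with LRRN3), TTC28 (270.3 kb, with PCBP1_copy2), COL6A6 (230.7 kb, with ASTE1 and PIK3R4) and IGLL5_copy3 (230.3 kb, with PRAME). The 5 shortest belonged to BRPF1 (1.017 kb, with HMGN2_copy5), TOP2A (1.086 kb, with RPS27_copy12), MPP5 (1.121 kb, with RPS24_copy9), RPAP3 (1.353 kb, with RPL30) and MYPN (1.438 kb, with RPS24_copy7). All 5 of the short gaps held a single-exon model of a gene for a small chromatin or ribosomal protein.

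Within the host, guests lay in the longest gap in 301 cases (61.2%) and in the first gap from the 5′ end in 124 (25.2%, 21.6% to 29.2%). First gaps make up 10.9% of all gaps and 17.5% of all gap bases. The median distance to the nearer coding exon of the host was 5.38 kb (quartiles 1.68 and 16.7 kb), and 82 guests (16.7%) came within 1 kb. Closest to the limit of the rule were DEK_copy6, 0.007 kb from a coding exon of UBE2Z, and VSIG10L, 0.015 kb from one of IGLON5. Just outside it were 53 models that lay inside another record but not in 1 gap. Of these, 32 shared coding bases with the other gene, and 21 did not, among them the phosphatase gene ACP1 inside BRD8 and the histone chaperone gene ASF1A inside MCM9. These models at the limit were chosen after their values were seen.

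Several guests formed small clusters inside 1 gap. Neurofibromin (NF1), a brake on Ras signalling, lay on scaffold 25 from 7868053 to 8065458 with 57 coding exons. Its gap 35 of 56, counted from the 5′ end, measured 61.3 kb and held 3 guests. The myelin glycoprotein gene OMG (7936314 to 7937642) had 1 coding exon of 1329 bases. EVI2B (7925158 to 7926465) had 1 coding exon of 1308 bases. EVI2A (7913812 to 7921413) had 2 coding exons with 699 bases. EVI2A and EVI2B encode membrane proteins known from retroviral integration sites. All 3 guests lay between 32.7 and 56.5 kb from the upstream exon, in the part of the gap nearer to the 3′ end of NF1.

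CENPP, a gene for a centromere protein, had only 7 coding exons over 169.7 kb on scaffold 25, yet its gap 4 of 6 measured 157.0 kb and held 4 guests. All 4 encode leucine-rich repeat proteins of the extracellular matrix. From the 5′ side of the host these were osteoglycin (OGN, 26969073 to 26981303, 6 coding exons), osteomodulin (OMD, 26989497 to 26991264, 2 coding exons), asporin (ASPN, 27015116 to 27029361, 7 coding exons) and ECM2 (27052632 to 27077503, 8 coding exons). ECM2 had more coding exons than its host.

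Receptor genes formed the other clusters. MED12L, a paralogue of a Mediator subunit gene, held guests in gap 15 of 43, which measured 162.3 kb on scaffold 13. Among them were the nucleotide receptor genes P2RY12 (1164591 to 1165631), P2RY13 (1177725 to 1178747) and P2RY14 (1265034 to 1297329) and their relative GPR171 (1311142 to 1312098). P2RY12 encodes the ADP receptor of platelets and P2RY14 a receptor for UDP-glucose. These 4 models had 957 to 1098 coding bases, close to each other in length, although P2RY14 spanned 32.3 kb and the 3 models with a single coding exon spanned 1.041 kb or less. CASK, a synaptic scaffold gene, held GPR34 (8172527 to 8173672) and GPR82 (8150012 to 8151016), each with 1 coding exon, in a gap of 50.2 kb on scaffold 24. UBAC2 held GPR18 (6227590 to 6228576) and the oxysterol receptor gene GPR183 (6260708 to 6266824) in a gap of 53.2 kb on scaffold 39.

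**Figure D2:**
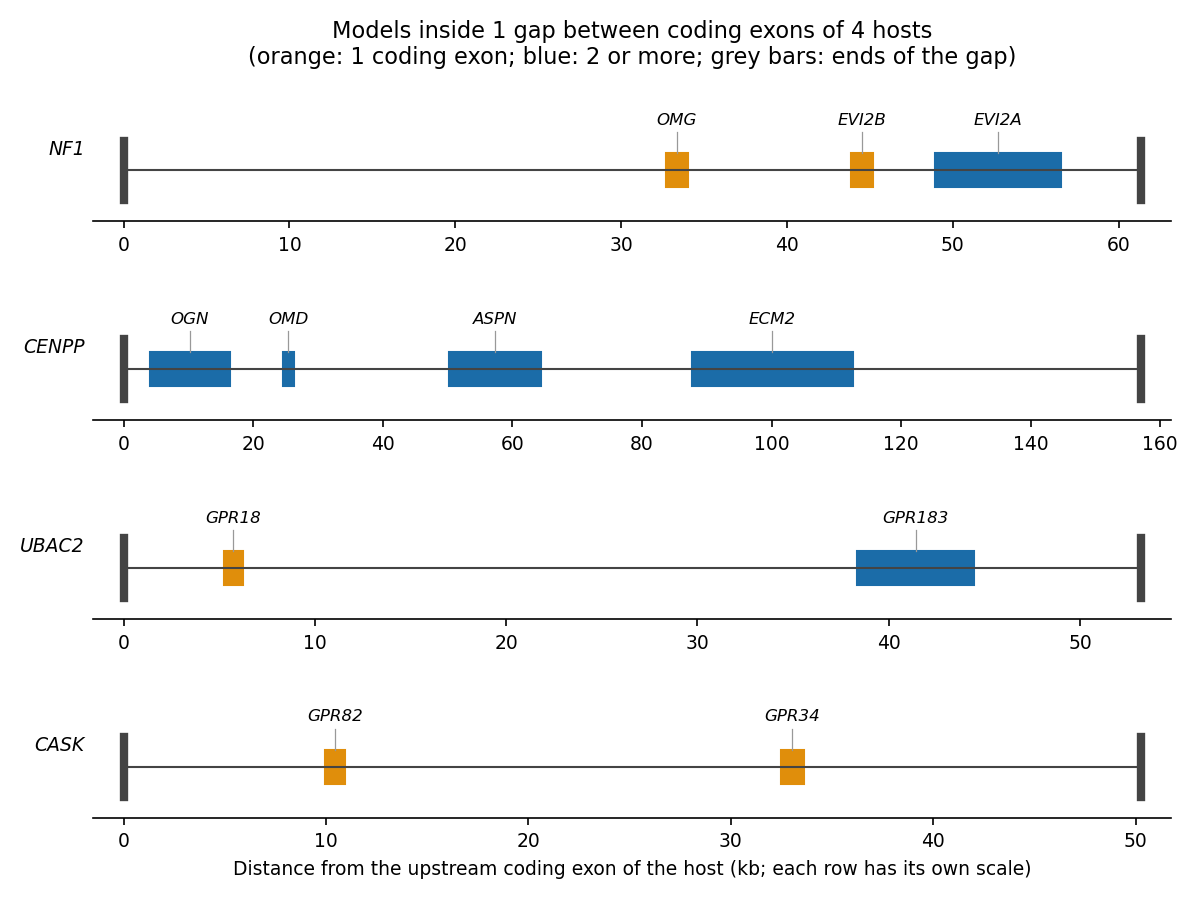
Guests drawn to scale inside the gap of 4 hosts (x axis, kb from the upstream coding exon of the host, with a separate scale for each host). Orange boxes are guests with 1 coding exon and blue boxes guests with 2 or more: NF1 holds 3 guests in 61.3 kb, CENPP 4 in 157.0 kb, UBAC2 2 in 53.2 kb and CASK 2 in 50.2 kb.

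Other receptor and membrane genes lay alone in their host. The lysophosphatidic acid receptor gene LPAR6 (scaffold 38, 8741417 to 8742448, 1 coding exon) lay in gap 15 of 24 of the tumour suppressor gene RB1. HTR2B, a serotonin receptor gene (scaffold 23, 34201981 to 34214597, 3 coding exons), lay in gap 15 of 22 of the proteasome subunit gene PSMD1. F2RL2, a protease-activated receptor gene (scaffold 8, 47229503 to 47237034), lay in gap 11 of 33 of IQGAP2. The potassium channel gene KCNJ13 (scaffold 23, 35308838 to 35311446) lay in gap 6 of 26 of GIGYF2. Apart from LPAR6, these guests had 2 or 3 coding exons and gaps of 15.3 to 29.9 kb. G protein-coupled receptors other than olfactory ones numbered 15 of the 492 guests (3.05%) and 209 of all 21076 models (0.992%).

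Among guests of other function, phospholamban (PLN), the inhibitor of the calcium pump of heart muscle, shared the shortest span of all guests, 0.156 kb, with MZT2B_copy2 in TUBA3D_copy2, which was named after its value was seen. The single coding exon of PLN, of 156 bases (scaffold 7, 48901895 to 48902050), lay in the first of 10 gaps of CEP85L. The galactosyltransferase gene B3GALT2 (scaffold 35, 5137091 to 5138356) lay in gap 10 of 16 of CDC73. The pentraxin gene PTX3 (scaffold 13, 36708842 to 36713853, 3 coding exons) lay in gap 2 of 11 of VEPH1. NAP1L5, known in other mammals as an imprinted retrogene, had 1 coding exon (scaffold 10, 10040759 to 10041340) in gap 21 of 23 of the ubiquitin ligase gene HERC3. The neuronal leucine-rich repeat gene LRRN3 (scaffold 5, 45911550 to 45913673, 1 coding exon of 2124 bases) took up little of the 427.8 kb gap of IMMP2L, a mitochondrial peptidase gene. LRTM1, another leucine-rich repeat gene, had 2 models with 1014 and 402 coding bases, both in gap 24 of 34 of CACNA2D3. Leucine-rich repeat surface and matrix genes made up 15 guests (3.05%) and 105 of all models (0.498%).

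Paralogous hosts carried paralogous guests at the same place of the gene. The 3 synapsin genes, which encode proteins of synaptic vesicles, each held a gene for a tissue inhibitor of metalloproteinases in gap 5. TIMP1 (scaffold 24, 3274601 to 3278992) lay in SYN1, TIMP4 (scaffold 12, 6320169 to 6325191) in SYN2 and TIMP3 (scaffold 19, 37249762 to 37297003) in SYN3. Each of the 3 guests had 5 coding exons, with 624, 800 and 627 coding bases. The coding exons on either side of the gap measured 90 and 63 bases in all 3 hosts, a neighbouring pair of lengths found in 9 models of the whole annotation. Going outwards, at least 3 coding exons before the gap and 4 after it had equal lengths in every pair of synapsins. In register that was 3 of 5 before and 4 of 5 after for SYN1 with either of the others. For SYN2 and SYN3 it was 4 of 5 and 4 of 8. The gaps differed in size far more than the exons, with 24.6 kb in SYN1, 10.6 kb in SYN2 and 188.6 kb in SYN3.

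The alpha-catenins, which tie cadherins to actin, carried genes of the LRRTM family of postsynaptic adhesion proteins. LRRTM2 (scaffold 3, 54846033 to 54847595, 1563 coding bases) lay in CTNNA1 and LRRTM1 (scaffold 9, 47967647 to 47969212, 1566 coding bases) in CTNNA2, each with 1 coding exon. Both gaps were flanked by coding exons of 204 and 81 bases, a pair found in 6 models. Counted away from the gap, 4 of 5 coding exons before it and 9 of 11 after it were equal in length. The gap of CTNNA1 measured 62.8 kb and that of CTNNA2 468.7 kb.

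NBEA and LRBA, paralogous genes for large proteins of vesicle traffic, carried the developmental genes MAB21L1 (scaffold 38, 794378 to 795454) and MAB21L2 (scaffold 1, 91332195 to 91333270). The guests had 1 coding exon each, of 1077 and 1076 bases. They lay 2.553 kb and 4.082 kb from the upstream exon, in gaps of 72.6 and 60.0 kb flanked by coding exons of 137 and 118 bases. After the gap 15 of 17 coding exons were equal in length in register. Before it 6 of 38 were equal in register, all 6 of them among the 7 exons nearest to the gap. Farther out the lengths also matched, but out of register. NBEA coding exons 5 to 23 equalled LRBA coding exons 2 to 20 in turn, which the count in register leaves out.

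A further 2 host families showed the same arrangement and were picked after their values were seen. RALGPS1 and RALGPS2, which encode exchange factors of Ral GTPases, held the angiopoietin-like genes ANGPTL2 (scaffold 15, 50715485 to 50748375, 4 coding exons) and ANGPTL1 (scaffold 5, 14319674 to 14338054, 5 coding exons). Both gaps were flanked by coding exons of 127 and 138 bases, and the guests shared coding exons of 194 and 271 bases. In register, 5 of 7 coding exons of the hosts before the gap and 5 of 11 after it were equal in length. The exchange factor genes DOCK1 and DOCK2 held FAM196A (scaffold 11, 61285895 to 61318326) and FAM196B (scaffold 2, 66370640 to 66387935), each with 3 coding exons. Their gaps were gap 11 of 36 and gap 27 of 51. The flanking coding exons measured 96 and 102 bases in DOCK1 and 96 and 99 in DOCK2, so those after the gap differed. In register, 9 of 11 coding exons before the gap and 18 of 25 after it were equal in length. ANGPTL7 (scaffold 2, 97502385 to 97507231, 5 coding exons), of the same family as ANGPTL1 and ANGPTL2, lay in gap 27 of 56 of the growth kinase gene MTOR.

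**Figure D3:**
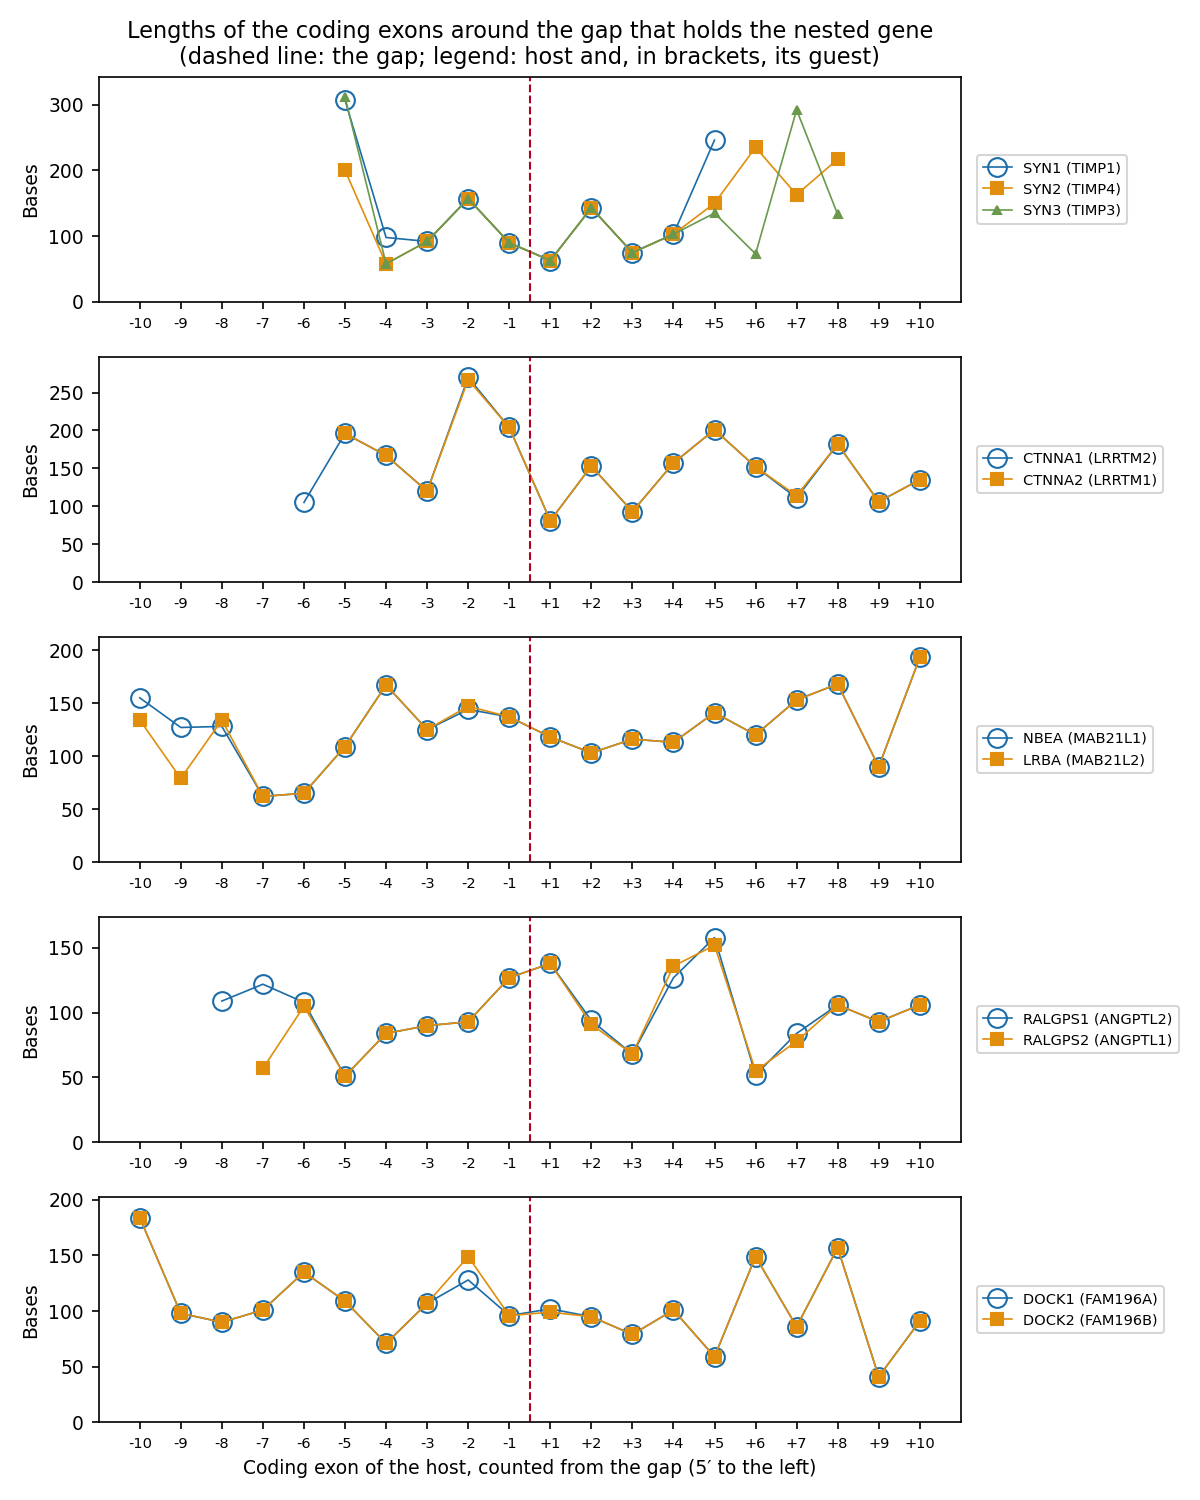
Length of the host's coding exons (y axis, bases) by their order from the gap that holds the guest (x axis, 5′ to the left, dashed line at the gap), for 5 families of paralogous hosts. Overlaid symbols are coding exons of equal length: the exons of 90 and 63 bases around the gap coincide in the 3 synapsins, and 9 of 11 exons after the gap coincide in CTNNA1 and CTNNA2.

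Of 49 pairs listed as nested in the human genome, 33 were nested in the mole annotation. Another 9 had both genes on 1 scaffold without nesting, 1 was on different scaffolds (TSSK1B and MCC), and 6 had no guest model. The same pairs were looked up in RefSeq genes of a later assembly of the mole, MPIMG_talOcc4v2.1, with a gene counted as nested when its whole span lay inside the span of the other. It had 44 of the 49 nested, among them all 33 found in the deposited models. Of the 11 pairs nested in RefSeq alone, 4 lacked a guest model in talOcc3 (GPR21, GPR52, POU5F2 and F8A1) and 7 had both genes modelled on 1 scaffold.

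In those 7 pairs the deposited host model did not reach the guest. BLCAP, with 1 coding exon, had no gap and could not hold a guest by the rule. The edges lay 1.90 kb apart for NNAT and BLCAP, 13.3 kb for LRTM2 and CACNA2D4, 24.2 kb for FLRT1 and MACROD1, 35.7 kb for AMELX and ARHGAP6, and 48.6 kb for IAPP and SLCO1A2. FLRT3 lay 1120 kb from MACROD2. LRRTM3 lay between models of CTNNA3, which was split into 3 parts with 7, 2 and 6 coding exons. It was 167.8 kb from the part with 2 and 72.2 kb from the part with 6. ANGPTL8, chosen after its values were seen, showed the same arrangement between 2 DOCK6 models, with 247 shared bases on one side and 1.364 kb to the other, and it was nested in RefSeq. Pairs neighbouring but not nested in RefSeq were CHRM5 with AVEN, CRHBP with S100Z and SLC18A3 with CHAT. The pair of ADORA3 and TMIGD3 could not be compared under these symbols.

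RefSeq also allowed the other guests to be compared. Of 186 guests with the only model of their symbol, 132 had guest and host symbols in RefSeq. Of these, 64 (48.5%, 40.1% to 56.9%) were nested there too, 1 overlapped, 26 were neighbours with no other protein-coding gene between, 32 were further apart and 9 were on different sequences. Guests with 1 coding exon were nested in both tables in 31 of 39 cases (79.5%, 64.5% to 89.2%). Those with several coding exons were nested in both in 33 of 93 (35.5%, 26.5% to 45.6%). Guests of the same host were counted singly here. Of the 132 pairs, 37 lay in hosts with at least 4 guests, and 9 of these were nested in RefSeq. In hosts with fewer guests it was 55 of 95. The intervals in this and the following comparisons with RefSeq take guests of the same host as independent and may be too narrow.

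Pairs with hosts of many coding exons were found nested in RefSeq more often. They were nested there in 2 of 24 cases (8.33%, 2.32% to 25.8%) for hosts with 2 to 4 coding exons and in 10 of 37 (27.0%, 15.4% to 43.0%) for hosts with 5 to 9. The count was 23 of 36 (63.9%, 47.6% to 77.5%) for hosts with 10 to 19 coding exons and 29 of 35 (82.9%, 67.3% to 91.9%) for those with 20 or more. By source, it was 63 of 104 for hosts from EVM, 0 of 14 for exonerate and 1 of 14 for ALN. Pairs nested in both tables had a median gap of 39.2 kb, and 3 of 64 (4.69%, 1.61% to 12.9%) lay in the first gap. Pairs nested in the deposited models alone had a median gap of 91.3 kb, and 29 of 68 (42.6%, 31.6% to 54.5%) lay in the first gap. The part of exon number, source and gap length in these differences was not tested separately.

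**Figure D4:**
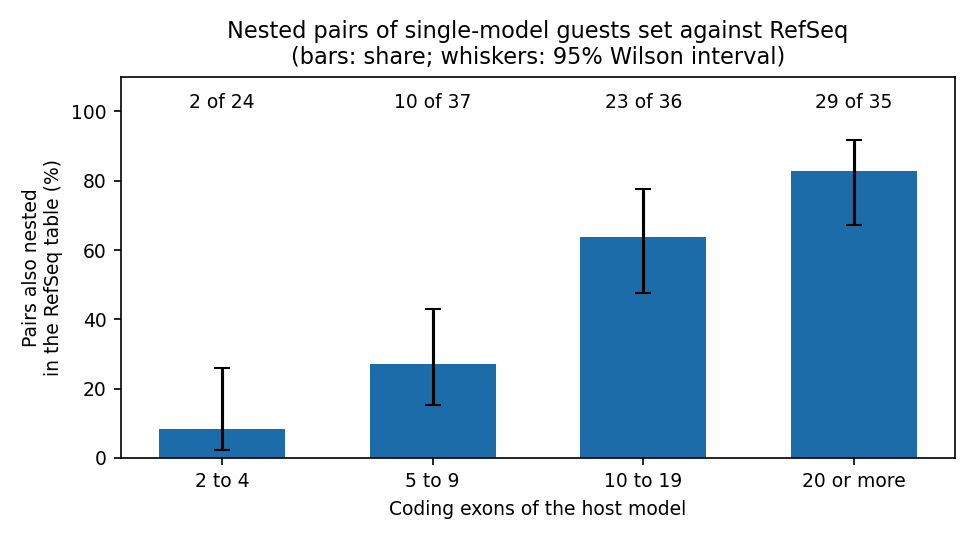
Share of compared pairs that were also nested in RefSeq (y axis, %) by the number of coding exons of the deposited host model (x axis); bars are shares, whiskers 95% Wilson intervals, and the counts stand above the bars. The share was 8.33% for hosts with 2 to 4 coding exons and 82.9% for hosts with 20 or more. The intervals take guests of the same host as independent.

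Zinc finger hosts carried many guests that RefSeq placed elsewhere. Hosts named ZNF, ZFP or ZSCAN numbered 22 and held 65 guests (13.2%), of which 19 were themselves named so. None of the 29 such pairs that could be compared was nested in RefSeq (0%, up to 11.7%), against 64 of 103 (62.1%) in other hosts. ZNF668 held the most guests of any host. Its 8 coding exons spanned 367.3 kb of scaffold 17 (36164019 to 36531304), with gaps of up to 173.9 kb, and it held 12 guests. These included the histone methyltransferase gene SETD1A with 2 models, the chromatin remodeller gene SRCAP (36 coding exons, 9927 coding bases), the ubiquitin ligase gene RNF40 (19 coding exons), FBRS (21 coding exons), the syntaxin gene STX4 and the cytokine gene CTF1. All 12 were set against RefSeq and 0 were nested there.

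The other hosts with many guests ranged from 3 to 44 coding exons. OR52E8 (3 coding exons over 106.9 kb) and OR52K2 (5 over 464.8 kb) held 8 guests each, all but TRIM68 named as olfactory receptors. OPN1LW, a cone opsin gene, had 3 coding exons with 413 coding bases and a gap of 151.3 kb whose guests included 4 HCFC1 models and IRAK1. ZNF43 held 6 histone models in a gap of 170.0 kb. ZNF45 held 6 guests, of which 0 of 6 were nested in RefSeq. ZNF132, ZNF467 and ZSCAN21 held 5 each, with 0 of 2, 0 of 4 and no pair compared. MED12L, with 44 coding exons, also held 5 guests, and 5 of 5 were nested in RefSeq, as were 4 of 4 in CENPP and 3 of 3 in NF1.

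The guests with most coding exons lay mainly in hosts with few exons. MUC16, a giant mucin gene, had 42 coding exons and 23319 coding bases in the last gap of the insulin receptor gene INSR. This pair could not be compared with RefSeq under these symbols. IQGAP1, a cytoskeletal scaffold gene with 37 coding exons, lay in the first gap of ZSCAN2. USP36, a deubiquitinase gene with 23, lay in the first gap of C1QTNF1 beside TIMP2. PUM2, with 20 coding exons, lay in the only gap of SLC7A9_copy2, and the integrin gene ITGB1, with 17, in the only gap of ABCA1_copy2. RHOT1 lay in TEFM and the fragile X gene FMR1 in ZNF714_copy3, with 17 coding exons each. IQGAP1, USP36 and RHOT1 were apart from their host in RefSeq, PUM2 and ITGB1 on another sequence than theirs, and FMR1 could not be compared under these symbols. PIK3R4 (19 coding exons) lay in COL6A6 and was not nested in it in RefSeq. Further EVM guests with long coding sequences were KRBA1 in ZNF467, GRM6 in ZNF454, PLA2G6 in MAFF and GTF3C4 in DDX31, all neighbours of their host in RefSeq, and B4GALNT4 in IFITM5, which was apart. TIMP2 was named after its value was seen, and it was apart from C1QTNF1 in RefSeq.

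The pairs nested in both tables included 32 that were not on the list of human pairs, and these were named after their values were seen. Several guests were receptor genes: GPR17 in LIMS2 (scaffold 1, 463511 to 464536), GPR22 in COG5 (scaffold 5, 43416683 to 43419972), and the chemokine receptor genes ACKR4 in ACAD11 (scaffold 12, 10601142 to 10602191) and CXCR6 in FYCO1 (scaffold 12, 32052948 to 32053973). Others encode leucine-rich repeat proteins, with LRRC4 in SND1, LRRC17 in FBXL13, LRRC18 in WDFY4, LRRC19 in IFT74, AMIGO3 in RNF123_copy2, VASN in CORO7 and the cartilage gene CHAD in ACSF2. The family of LRRC symbols had 61 members with a model, of which 4 were nested. Collagen X (COL10A1, scaffold 7, 46622779 to 46630571), known from hypertrophic cartilage, lay in gap 7 of 11 of NT5DC1. The clotting inhibitor gene SERPIND1 lay in gap 18 of 53 of PI4KA, the adaptor gene SLA in gap 39 of 45 of the thyroglobulin gene TG, and the immune checkpoint gene VSIR in gap 34 of 65 of CDH23. VSIR took up 66.2% of its gap and LRRC17 71.0%, whereas HMGB4, a high mobility group gene with 1 coding exon in CSMD2, took up 0.789%.

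Among the classes compared, genes for cytosolic ribosomal proteins, the protein parts of the ribosome, supplied the most guests. They gave 75 guests of 34 symbols, 15.2% of all guests and 2.47% of all models. Of these, 68 had 1 coding exon, and 73 of the 75 lay in hosts from EVM. The 75 were spread over 74 hosts. Of the 411 single-exon models with a ribosomal protein symbol, 16.5% (13.3% to 20.4%) were nested, against 5.86% (5.15% to 6.67%) of the 3686 with another symbol. The difference was smaller among single-exon copies of multi-exon symbols on scaffolds of at least 1 Mb, at 59 of 354 (16.7%, 13.1% to 20.9%) and 132 of 1339 (9.86%, 8.37% to 11.6%). The symbols with most nested models were RPS24 (7 of 21 models), RPL21 (6 of 33), RPL17 (5 of 21), RPL26 (5 of 16) and RPS27 (5 of 12).

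The nested ribosomal copies were short and lay in short gaps. Those with 1 coding exon had 216 to 900 coding bases with a median of 392, and lay in gaps with a median of 9.86 kb. Their deposited score, which rates the match of a model to a named target transcript, had a median of 87.5% of the best score for the same symbol. The 5 nested RPS27 models had 70.3% to 100% of the best RPS27 score, and the model with the best score of all RPS27 models was itself the guest in INTS4. RPL8 (6 coding exons, in ZNF16) had several exons, unlike most of this class. It was the only model of its symbol, and was apart from its host in RefSeq. RPS3A_copy2 in CATSPERB and RPSA_copy9 in ATR had 2 coding exons each.

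Cytochrome c (CYCS), the electron carrier of mitochondria, was a further example, chosen after its values were seen. Of its 5 models, 4 were nested, each with 1 coding exon: CYCS in RNF17, CYCS_copy2 in HELLS, CYCS_copy3 in NSD1 and CYCS_copy5 in LRPPRC. Their coding lengths were 318, 318, 318 and 313 bases and their scores 100%, 99.0%, 97.4% and 87.9% of the best. Subunits of the respiratory chain numbered 9 guests (1.83%, against 0.607% of all models), among them NDUFA12 in CNTLN, ATP5S_copy3 in VPS13A, NDUFA4_copy4 in ALDH7A1 and ATP5L_copy6 in FAF1. Splicing and RNA-binding ribonucleoproteins numbered 6 (1.22%, against 0.474%), with HNRNPA3 in AQR, HNRNPA3_copy4 in ANKRD26_copy4, HNRNPDL_copy4 in RNF31 and SNRPG_copy4 in HEATR5B. Translation factors numbered 3 (0.610%, against 0.451%): EEF1A1_copy8 in MAGT1, and EIF4B_copy2 and EIF4B_copy3 in the same gap of DIRC2.

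Single-exon copies as a whole were recorded less densely inside gaps than outside genes. On scaffolds of at least 1 Mb, 1693 single-exon models had a sister model with several exons, of which 191 (11.3%) lay in gaps and 1465 (86.5%) outside models with several exons. That was 0.368 copies per Mb of gaps and 1.08 per Mb outside, a ratio of 2.93. The count inside gaps holds only the strand opposite to the host, because same-strand overlaps were missing from the annotation. Copies outside could lie on either strand, so part of this ratio was fixed in advance and it is no measure of where copies land. Copies inside gaps had a median of 69.1% of the best score of their symbol (quartiles 44.3% and 94.4%) and copies outside 64.2% (32.2% and 93.3%), with quartiles that overlap widely.

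**Figure D5:**
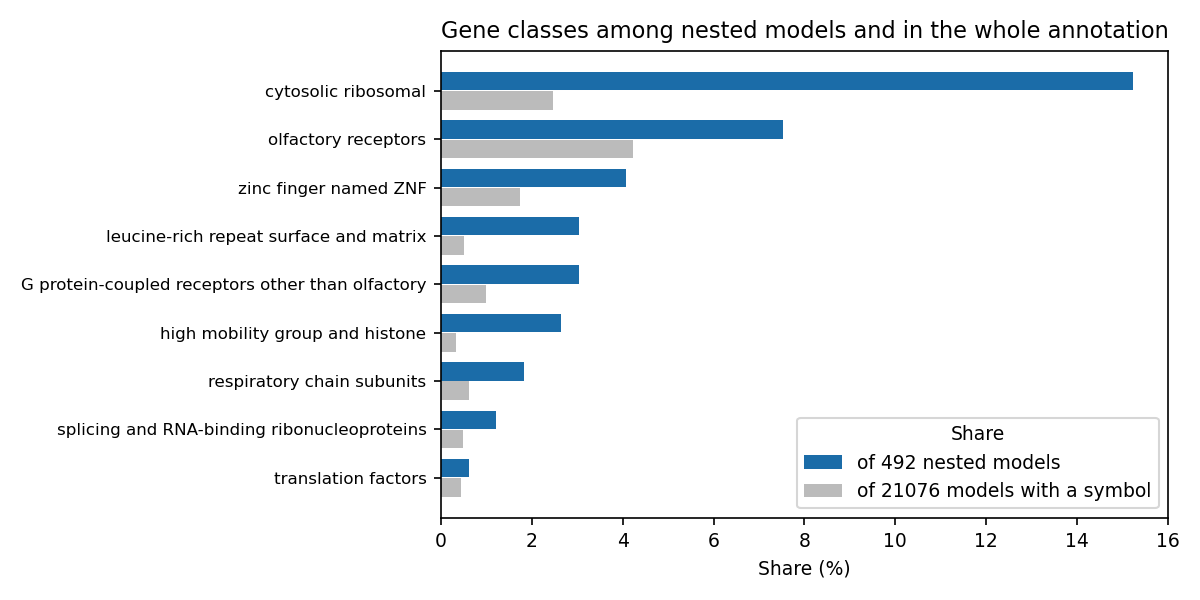
Share of each gene class (x axis, %) among the 492 nested models (blue) and among all 21076 models with a symbol (grey). Ribosomal proteins make up 15.2% of guests and 2.47% of all models, and olfactory receptors 7.52% and 4.24%.

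In the deposited models, members of tandem families were nested in each other. Olfactory receptors supplied 37 guests (7.52%, against 4.24% of all models), and 31 of the 37 lay inside 12 hosts that were olfactory receptors too. These 12 hosts came from exonerate or ALN, and none had a guest that could be compared with RefSeq, so their nesting rests on the deposited models alone. OR51F1_copy3, with 3 coding exons, had the longest span of any guest at 107.8 kb, inside OR52K2. OR52N4 lay in OR52E8, and OR2AE1 and OR2AE1_copy2 lay in ZSCAN21. Olfactory receptors are usually encoded by 1 coding exon, and 29 of the 37 guests had 1. Genes named ZNF supplied 20 guests (4.07%, against 1.75%), with ZNF212 and ZNF398 in ZNF467, ZNF558 in INSR and ZNF34_copy2 in ZNF16. High mobility group and histone genes supplied 13 (2.64%, against 0.332%). Among these, HIST3H2A and HIST3H2A_copy3 lay in ZNF43, HIST1H3D in HIST3H2A_copy7, and HMGB1, with 1 coding exon and the best HMGB1 score, in RFWD2.

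FGF9, at the viewpoint of the series, lay on scaffold 38 from 11731991 to 11761319 and was neither a guest nor a host. Within 3 Mb of its start, 2 of 43 models with a symbol (4.65%) were guests, against 2.33% over all scaffolds, and the share rests on these 2 models. Both had 1 coding exon. VDAC2_copy2, a copy of a mitochondrial channel gene (13719568 to 13720156), lay in a gap of 4.297 kb of PARP4, 1.96 Mb from the FGF9 start. CYCS (14035109 to 14035426) lay in a gap of 12.5 kb of RNF17, 2.27 Mb from it. The whole scaffold held 6 guests among 111 models (5.41%), which also included MAB21L1 in NBEA, LPAR6 in RB1, RPL24_copy3 in SOHLH2 and RPL27A_copy6 in RCBTB1.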

How the data were processed

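The deposited gene annotation of build talOcc3 was read as given: 23336 gene models on 2074 scaffolds, of which 21076 carried a symbol (16075 distinct symbols after copy suffixes were removed). Coordinates count from 1. The deposited score of a transcript rates its match to a target transcript; the way it was calculated was not given in the sources used here, and it was compared only within a symbol. The submitters' processing notes name BWA without a version. Models came from EVM, exonerate or ALN, per the file's second column. Since 70 model names served more than 1 gene record, transcripts were linked by position, and 412 gene records were wider than their coding span.

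Gaps were taken between successive coding exons, so introns within untranslated regions held no guest by this rule. Each guest was counted once. The RefSeq gene table (31566 genes) was used for names and relative position within its own build; it gives no strand, sequence ends were inferred where starts fell (460 sequences), and symbols were matched exactly. Nesting was counted with Python 3.11.15, NumPy 2.4.6 and SciPy 1.17.1, and plotted with Matplotlib 3.10.9. Tested on simulated data, the routine found 800 of 800 planted pairs with 0 false calls among 781 decoys. The planned Fisher's exact test of strand was not run, because strand had a single value.

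The members, pair list and gene classes were chosen with earlier results of these data known. The pair list was written from general knowledge of human gene order. Named genes were the listed pairs, the 10 hosts with most guests, the 10 guests with most coding exons and the 10 with the longest coding sequence, the 5 symbols with most nested models, the 5 shortest and 5 longest gaps, up to 4 genes per class, up to 15 EVM guests with several coding exons, and guests within 3 Mb of FGF9. A few genes named by this rule were left out. Other genes are marked as chosen after their values were seen. Alternatives varied the symbol, scaffold, coding length, gap length, host source and placement of the guest. Sequence was not analysed here.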

Additional observations from a re-analysis of the deposited data

How the results depend on the processing

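The 492 guests became 364 to 560 under 7 of the 8 alternatives, and all guests stayed on the opposite strand in all 8. Taking guests whose symbol had 1 model, an alternative chosen after seeing the data, left 186 guests by construction, of which 29.0% had 1 coding exon. The share with 1 coding exon, 57.7% as reported, was 52.1% for guests of at least 300 coding bases, which drops short models by construction, and 62.4% with EVM hosts only, where the cause was not tested. Under the other 5 alternatives it kept within its counting interval. Placing guests by their first and last coding base, also chosen after seeing the data, gave 494. Of the listed human pairs, 33 were nested in the deposited models and 44 in RefSeq, where spans of whole genes were compared instead of gaps. No paired analysis was possible because each tissue had 1 library and the annotation holds no value of either library; for the same reason no replicate was left out. Whether the extent of the host models bears on these counts was not tested.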
